A study of Homo sapiens with 9 samples.

Results

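Replication-independent histone variants are the histone genes that cells transcribe outside the burst of histone synthesis in S phase. The 8 genes described here are H2AX, H2AZ1, H2AZ2, MACROH2A1, MACROH2A2, H3-3A, H3-3B and H1-10, chosen by symbol from the 58395 gene identifiers that every count file lists, and 7 of the 8 passed the filter on low counts that left 16575 genes for testing. They were measured by RNA sequencing in MDA-MB-231, an established human line of triple-negative breast cancer with a mesenchymal phenotype, after 96 h with 1 of 3 siRNA preparations given by reverse transfection. SKP2-2 and SKP2-1 are cells given the second and the first siRNA against SKP2, an F-box protein through which an SCF ubiquitin ligase recognises its substrates, p27 among them. NC is the nontargeting control siRNA, which passes through the same transfection, and each of the 3 groups has 3 libraries. All 9 libraries come from the same line grown in DMEM with serum, and no untransfected cells were analysed here. The design text of the series names another target, ZIP7 (SLC39A7), so both genes were checked before the histone genes were read.

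Canonical histones are made from intronless gene clusters whose mRNAs end in a stem-loop, and they are placed on DNA behind the replication fork. Variant histones come from genes scattered over the genome, mostly with polyadenylated mRNAs, and dedicated chaperones and remodelling complexes put them into chromatin through the whole cell cycle. H2AX is an exception in that it makes both stem-loop and polyadenylated mRNA. H2A.Z sits beside transcription start sites, H2A.X is the form that is phosphorylated around DNA breaks, macroH2A carries a large globular domain and is rich in silent chromatin, and H3.3 replaces H3 where nucleosomes turn over. H1.10 (H1X), encoded by H1-10, is a linker histone that binds DNA between nucleosomes.

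SKP2 itself fell with both siRNAs, and SLC39A7 was called with neither under TMM scaling. The level of SKP2 in replicates 1 to 3 was 6.09, 5.69 and 6.11 CPM (counts scaled to library size by TMM) in SKP2-2, 3.51, 3.31 and 3.91 CPM in SKP2-1, and 57.5, 63.8 and 64.9 CPM in NC (adjusted p = 5.35e-12 for SKP2-2 and 8.64e-12 for SKP2-1). SLC39A7 averaged 364 ± 10.3 CPM in SKP2-2, 343 ± 1.07 CPM in SKP2-1 and 342 ± 8.38 CPM in NC (SD, n = 3; adjusted p = 0.0868 and 0.936). Scaled by library size only, SLC39A7 was called in SKP2-2 (0.13, adjusted p = 0.0138, range over 18 alternatives 0.0138 to 0.46). Gene counts totalled 35476410 to 49855113 per library. The third principal component (11.6% of the variance) set SKP2-2 replicate 3 (-14.6) and NC replicate 1 (-30.3) against SKP2-2 replicate 1 (21.7) and NC replicate 3 (21.2). Of 8 marker genes of the line, all but SPARC were above 1 CPM in some library of each group. Of 10 luminal genes, ESR1, PGR and FOXA1 stayed below 1 CPM in every library and the others did not. The luminal list summed to 940.5 to 1112 CPM in SKP2-2, 933 to 939 CPM in SKP2-1 and 787 to 968 CPM in NC, with 2 of 8 tested genes higher and 3 lower in SKP2-2 and 3 higher and 2 lower in SKP2-1. AGR2, higher in both, averaged 53.0 CPM in SKP2-2, 49.7 CPM in SKP2-1 and 19.4 CPM in NC. CDH1, lower in both, averaged 3.89 CPM in SKP2-2, 8.15 CPM in SKP2-1 and 12.4 CPM in NC. KRT19 was also higher and KRT18 also lower with both siRNAs. Of 8 immune markers, CD3E, MS4A1 and CD68 stayed below 1 CPM, while of the 4 tested (PTPRC, CD14, ITGAM and LYZ, each at most 2.58 CPM on average) 3 were higher in SKP2-2 and 4 in SKP2-1 (medians 1.00 and 1.02). The immune list summed to 5.18 to 5.58 CPM in SKP2-2, 5.97 to 6.69 CPM in SKP2-1 and 3.05 to 3.79 CPM in NC.

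Of 6 endothelial markers, VWF, CDH5, TEK and CLDN5 stayed below 1 CPM, and of the 2 tested KDR was higher with both siRNAs and PECAM1 in SKP2-1. That list summed to 7.94 to 9.50 CPM in SKP2-2, 15.7 to 17.4 CPM in SKP2-1 and 7.11 to 8.19 CPM in NC. Of 8 fibroblast markers, COL3A1, DCN, PDGFRA and THY1 stayed below 1 CPM, and of the 4 tested LUM was higher and COL1A1 lower in SKP2-2 and 2 were higher in SKP2-1. The fibroblast list summed to 14.8 to 19.8 CPM in SKP2-2, 26.1 to 29.1 CPM in SKP2-1 and 26.0 to 41.2 CPM in NC. The part of these markers in the values of the histone variant genes was not tested. Beside the marker counts, 25.2% of all tested genes were higher and 24.1% lower in SKP2-2. In SKP2-1 25.0% were higher and 20.5% lower.

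Transcripts of most histone variants were lower after SKP2 siRNA, by 1.10 to 3.13 times in the calls made. Of the 7 tested genes, 6 were lower and none higher in SKP2-2 against NC, where 49.4% of all tested genes were called, 24.1% lower and 25.2% higher, at an adjusted p below 0.05. Likewise 6 were lower and none higher in SKP2-1 against NC, where 45.5% of all tested genes were called, 20.5% lower and 25.0% higher. H2AZ1, H2AZ2, MACROH2A1, H3-3B and H1-10 were called lower with both siRNAs, as were 11.0% of all tested genes. The median log2 fold change of the 7 genes was -0.50 in SKP2-2 and -0.80 in SKP2-1, beside 0.03 and 0.02 over all tested genes. Both comparisons use the same 3 NC libraries. The share of all tested genes whose groups do not overlap is not given here. A lack of overlap stated below therefore describes each gene and is not shown to be particular to histone variants. In RNA from whole cultures, fewer cells of a cycle phase and less RNA per cell cannot be told apart.

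**Figure D1:**
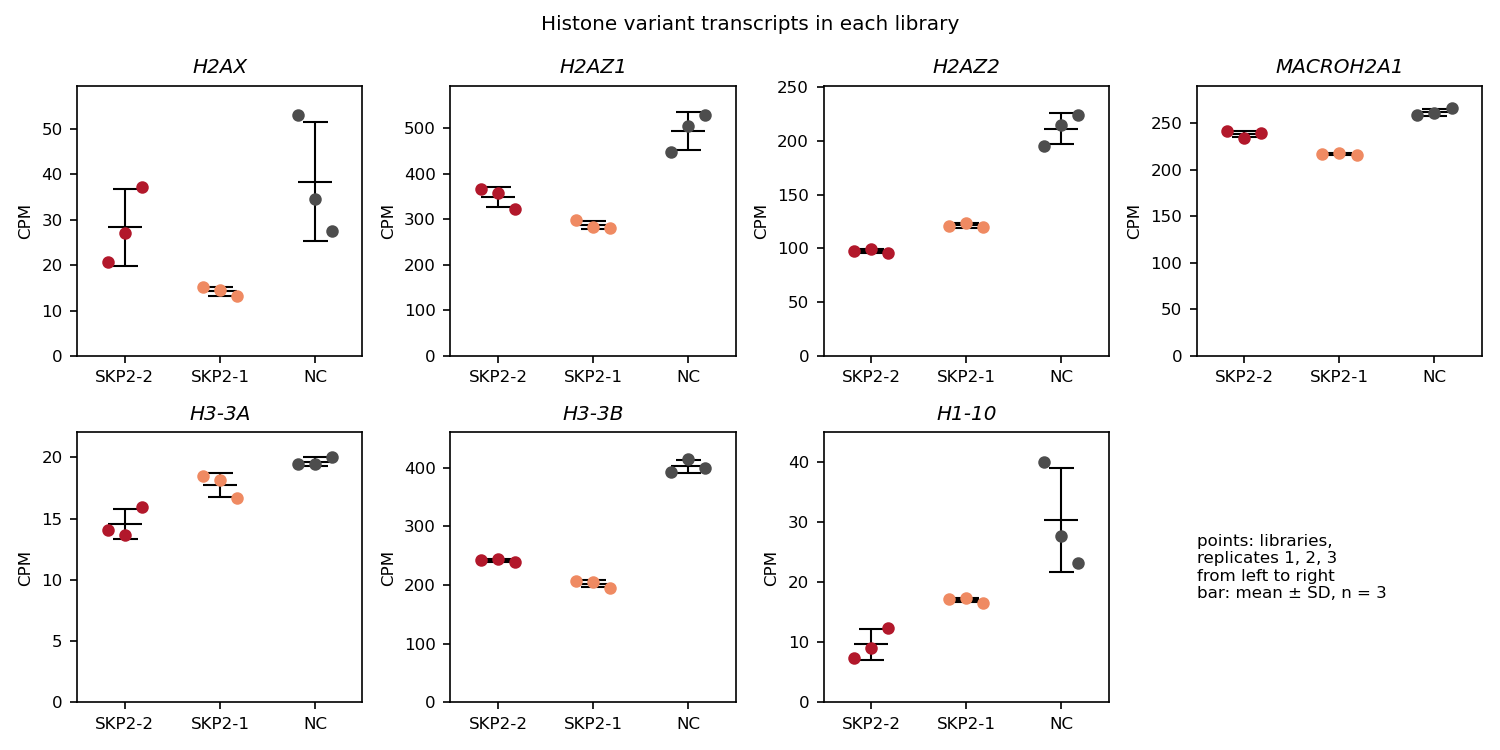
Level of each histone variant transcript in CPM (vertical axes, each from 0) in the 3 libraries of SKP2-2, SKP2-1 and NC, with the mean and SD (n = 3) as bars. H2AZ1, H2AZ2, MACROH2A1, H3-3A, H3-3B and H1-10 lie below all NC libraries in both siRNA groups, whereas H2AX in SKP2-2 (20.6 to 37.3 CPM) overlaps NC (27.5 to 53.0 CPM). The share of all tested genes without overlap is not given here.

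The promoters of H2AZ1, H2AZ2, H3-3B and H2AX are printed because each carries several copies of 1 short element, and they were picked out after the matches were seen. Each line gives the 300 bases from 250 before to 50 after the transcription start, 5′ to 3′ on the minus strand that encodes the gene, from RefSeq on GRCh38.p14. The windows are chr4:99950226-99950525 for H2AZ1, chr7:44848038-44848337 for H2AZ2, chr17:75779730-75780029 for H3-3B and chr11:119095416-119095715 for H2AX. Capitals mark CCAAT boxes (CCAAT or, on the other strand, ATTGG), cell cycle homology regions (CHR: TTTGAA or TTCGAA on either strand) and TATA boxes (TATAAA on either strand).
H2AZ1: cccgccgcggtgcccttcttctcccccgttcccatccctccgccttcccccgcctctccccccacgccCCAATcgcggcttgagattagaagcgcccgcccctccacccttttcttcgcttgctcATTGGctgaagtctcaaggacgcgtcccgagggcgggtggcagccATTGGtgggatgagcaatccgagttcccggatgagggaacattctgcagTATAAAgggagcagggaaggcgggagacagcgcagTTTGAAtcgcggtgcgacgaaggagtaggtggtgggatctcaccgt
H2AZ2: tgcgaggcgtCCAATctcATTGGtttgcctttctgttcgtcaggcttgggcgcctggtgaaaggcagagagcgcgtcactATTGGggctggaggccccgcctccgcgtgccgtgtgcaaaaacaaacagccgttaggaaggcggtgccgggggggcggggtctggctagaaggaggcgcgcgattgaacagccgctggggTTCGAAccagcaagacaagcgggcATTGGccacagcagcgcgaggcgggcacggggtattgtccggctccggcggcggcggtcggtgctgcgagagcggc
H3-3B: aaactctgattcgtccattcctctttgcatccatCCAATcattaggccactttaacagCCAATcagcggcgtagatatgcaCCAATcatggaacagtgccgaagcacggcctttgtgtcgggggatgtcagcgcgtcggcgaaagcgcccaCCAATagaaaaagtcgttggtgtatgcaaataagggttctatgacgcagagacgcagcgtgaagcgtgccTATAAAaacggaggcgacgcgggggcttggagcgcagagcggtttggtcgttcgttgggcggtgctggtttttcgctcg
H2AX: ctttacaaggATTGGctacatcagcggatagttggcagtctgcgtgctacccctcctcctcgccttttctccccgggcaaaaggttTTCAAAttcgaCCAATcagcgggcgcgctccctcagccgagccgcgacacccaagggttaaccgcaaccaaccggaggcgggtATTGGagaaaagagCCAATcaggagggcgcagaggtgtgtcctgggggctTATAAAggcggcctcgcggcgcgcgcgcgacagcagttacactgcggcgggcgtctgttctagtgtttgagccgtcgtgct
The window of H2AZ1 held 3 CCAAT boxes, those of H2AZ2, H3-3B and H2AX held 4 each, and no match overlapped another. At least 3 CCAAT boxes were found in 3.26% of the 35116 promoters in the table, and at least 1 in 34.6%. A CHR match was present in H2AZ1, H2AZ2 and H2AX and in 16.4% of all promoters, and a TATA box was present in H2AZ1 (31 bases upstream of the start), H3-3B (29) and H2AX (31) and in 11.5% of all promoters. The window of H1-10 held a TATA box 31 bases upstream and neither of the other elements. Each window of H3-3A held at most 1 CCAAT box, those of MACROH2A1 held 0 and 2, and that of MACROH2A2 held 0. None of these windows held a CHR match or a TATA box. Several CCAAT boxes are thus not general to the 8 genes. The E2F letters TTTCCCGC or TTTGGCGC, on either strand, occurred in 2.27% of promoters and in none of the windows listed for the 8 genes. These letters are matches only, and binding was not measured.

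H2A.Z is encoded by H2AZ1 and H2AZ2, whose coding sequences shared 80.4% of 387 bases, with a longest identical run of 23 bases. H2AZ1 (ENSG00000164032, chromosome 4, 99948086 to 99950388, minus strand, GENCODE 29 on GRCh38) had 365, 357 and 323 CPM in SKP2-2, 298, 283 and 282 CPM in SKP2-1 and 447, 503 and 530 CPM in NC, replicates 1 to 3. The 3 groups did not overlap, with SKP2-1 lowest and NC highest. The fall was 1.42 times in SKP2-2 (a log2 fold change of -0.50 with SE 0.06, adjusted p = 2.56e-05) and 1.72 times in SKP2-1 (-0.78 with SE 0.07, adjusted p = 5.41e-07). H2AZ2 (ENSG00000105968, chromosome 7, 44826791 to 44848083, minus strand) had 97.9, 99.4 and 96.0 CPM in SKP2-2, 121, 124 and 119.7 CPM in SKP2-1 and 196, 215 and 224 CPM in NC. Here too the groups did not overlap, but SKP2-2 was lowest. H2AZ2 was 2.16 times lower in SKP2-2 (-1.11, SE 0.05, adjusted p = 1.85e-09) and, in SKP2-1, 1.74 times lower (-0.80, SE 0.05, adjusted p = 3.84e-08). Between the siRNAs the pair moved in opposite directions: SKP2-2 minus SKP2-1 was 0.28 for H2AZ1 (SE 0.06, adjusted p = 0.00303) and -0.31 for H2AZ2 (SE 0.05, adjusted p = 0.000175).

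The ratio of the pair of H2A.Z transcripts therefore differed between the siRNAs. Counts of H2AZ1 over H2AZ2, a ratio that does not depend on how a library is scaled, were 3.73, 3.59 and 3.36 in SKP2-2, 2.46, 2.28 and 2.35 in SKP2-1 and 2.29, 2.35 and 2.36 in NC. All SKP2-2 libraries stood above all others, while SKP2-1 and NC overlapped. The ratio was 1.53-fold higher in SKP2-2 than in NC and 1.51-fold higher than in SKP2-1 (two-sided exact permutation p = 0.1 for each), and 1.01-fold higher in SKP2-1 than in NC (exact permutation p = 0.7). With 3 against 3 libraries 0.1 is the smallest p the test can give, and 6 such ratios were compared. Summed over both genes, H2A.Z transcripts came to 446 ± 23.8 CPM in SKP2-2, 409 ± 9.01 CPM in SKP2-1 and 705 ± 56.7 CPM in NC (SD, n = 3). On a scale per kilobase of transcript, H2AZ1 made up 93.2 ± 0.334% of the sum in SKP2-2, 90.2 ± 0.337% in SKP2-1 and 90.1 ± 0.157% in NC. These shares rest on the transcript lengths used, 979 bases for H2AZ1 and 3804 for H2AZ2. They would be lower with all annotated exons together, 2303 and 4749 bases.

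H3.3 is one protein made from H3-3A and H3-3B, whose coding sequences differ more than their product does: 78.6% of 411 bases were identical, and no identical run exceeded 14 bases. H3-3B (ENSG00000132475, chromosome 17, 75776434 to 75785893, minus strand) had 244, 244 and 239 CPM in SKP2-2, 207, 205 and 196 CPM in SKP2-1 and 393, 415 and 400.0 CPM in NC. The groups were far apart compared with the spread within them. It was 1.66 times lower in SKP2-2 (log2 value -0.73 with SE 0.04, adjusted p = 1.38e-08) and, in SKP2-1, 1.99 times lower (-0.99, SE 0.04, adjusted p = 1.21e-09). H3-3A (ENSG00000163041, chromosome 1, 226061851 to 226072001, plus strand) was the lower of the pair, with 14.1, 13.7 and 15.9 CPM in SKP2-2, 18.5, 18.2 and 16.7 CPM in SKP2-1 and 19.4, 19.5 and 20.1 CPM in NC. No library of either siRNA reached the lowest NC library. It was called 1.35 times lower in SKP2-2 (-0.43, SE 0.07, adjusted p = 0.000236), and in SKP2-1 it had -0.15 (SE 0.07, adjusted p = 0.118). With only the SKP2-1 and NC libraries in the fit the SKP2-1 value was -0.21 and was called (adjusted p = 0.0191, range over 18 alternatives 0.0191 to 0.371). SKP2-2 and SKP2-1 differed directly, by 0.26 for H3-3B (SE 0.04, adjusted p = 0.000207) and by -0.29 for H3-3A (SE 0.07, adjusted p = 0.00483).

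The count ratio of H3-3A over H3-3B was 0.0577, 0.0560 and 0.0666 in SKP2-2, 0.0892, 0.0885 and 0.0852 in SKP2-1 and 0.0494, 0.0469 and 0.0502 in NC. The 3 groups did not overlap, and SKP2-1 stood highest. The ratio was 1.23-fold higher in SKP2-2 than in NC, 1.80-fold higher in SKP2-1 than in NC, and 0.684-fold in SKP2-2 relative to SKP2-1 (exact permutation p = 0.1 for each). H3.3 transcripts summed to 257 ± 1.67 CPM in SKP2-2, 220.5 ± 7.23 CPM in SKP2-1 and 422 ± 11.2 CPM in NC (SD, n = 3). H3-3A gave 8.02 ± 0.699% of that sum per kilobase in SKP2-2, 11.3 ± 0.244% in SKP2-1 and 6.62 ± 0.220% in NC. These percentages rest on transcript lengths of 1863 bases for H3-3A and 2705 for H3-3B. They would be higher with all annotated exons together, 3146 and 6134 bases. The level of H3-3A is uncertain, since 12.9% of the 50-base stretches of its transcript also occur in 9 other genes, and how reads that match several places were treated is not given in the sources used here. The same share was 8.28% for H3-3B, 6.45% for H2AZ1 and 3.06% for H2AZ2, and read length is not given in the sources used here.

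**Figure D2:**
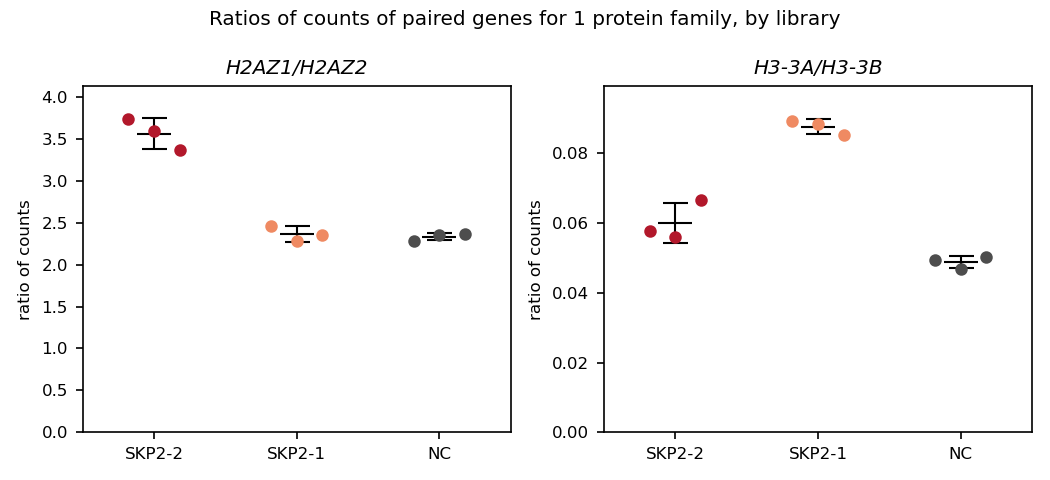
Ratio of counts of H2AZ1 over H2AZ2 (left) and H3-3A over H3-3B (right) in each library of SKP2-2, SKP2-1 and NC, with the mean and SD (n = 3) as bars and both axes from 0. The H2A.Z ratio in SKP2-2 (3.36 to 3.73) lies above all other libraries, and the H3.3 ratio is highest in SKP2-1 (0.0852 to 0.0892).

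Of the macroH2A genes, MACROH2A1 was expressed and changed least of the called genes. MACROH2A1 (ENSG00000113648, chromosome 5, 135333900 to 135399914, minus strand) had 242, 235 and 239 CPM in SKP2-2, 216, 218 and 216 CPM in SKP2-1 and 259, 261 and 266 CPM in NC. The groups did not overlap and the spread within each was small. It was 1.10 times lower in SKP2-2 (log2 value -0.14 with SE 0.04, adjusted p = 0.00931, and -0.09 when scaled by library size only) and, in SKP2-1, 1.21 times lower (-0.27 with SE 0.04, adjusted p = 6.10e-05). SKP2-2 was 0.14 above SKP2-1 on the log2 scale (SE 0.04, adjusted p = 0.00926). Gene counts do not separate its splice forms macroH2A1.1 and macroH2A1.2, of which the first binds ADP-ribose. MACROH2A2 (ENSG00000099284, chromosome 10, 70052796 to 70112280, plus strand) had 1 count in all 9 libraries together, in SKP2-1 replicate 3, and was not tested. A floor of 3 counts per library lies at 0.0608 to 0.0843 CPM, so no difference in MACROH2A2 was detectable at this depth. That limit covers counting error only.

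H2AX, whose phosphorylated form marks DNA breaks, varied most among replicates in SKP2-2 and NC. H2AX (ENSG00000188486, chromosome 11, 119093854 to 119095467, minus strand) had 20.6, 27.0 and 37.3 CPM in SKP2-2, 15.2, 14.4 and 13.2 CPM in SKP2-1 and 53.0, 34.6 and 27.5 CPM in NC. SKP2-1 was below every other library, whereas SKP2-2 and NC overlapped. H2AX was 2.68 times lower in SKP2-1 (log2 value -1.42 with SE 0.31, adjusted p = 0.00929) and its value in SKP2-2 was -0.44 (SE 0.30, adjusted p = 0.282). SKP2-2 was 1.98-fold higher than SKP2-1 (0.99, SE 0.31, adjusted p = 0.0361). That difference between siRNAs was no longer called when any of SKP2-1 replicates 1, 2 and 3, SKP2-2 replicates 2 and 3 or NC replicate 2 was left out (0.74 to 1.03, adjusted p = 0.0561 to 0.107).

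H1-10 is a single-exon gene for a linker histone. H1-10 (ENSG00000184897, chromosome 3, 129314771 to 129316277, minus strand) had 7.40, 9.11 and 12.4 CPM in SKP2-2, 17.2, 17.3 and 16.6 CPM in SKP2-1 and 39.9, 27.7 and 23.2 CPM in NC. The groups did not overlap, with SKP2-2 lowest. It was 3.13 times lower in SKP2-2 (log2 value -1.64 with SE 0.25, adjusted p = 0.00142) and, in SKP2-1, 1.77 times lower (-0.83, SE 0.24, adjusted p = 0.0302), and SKP2-2 was 0.82 below SKP2-1 (SE 0.25, adjusted p = 0.0325). The SKP2-1 call was lost without NC replicate 2, without any 1 of the SKP2-1 libraries and without SKP2-2 replicate 2 (-0.89 to -0.81, adjusted p = 0.0508 to 0.0900). The difference between siRNAs was lost without any 1 of the SKP2-1 libraries and without SKP2-2 replicate 1 or 2 (-0.84 to -0.67, adjusted p = 0.0725 to 0.0948). H1-10 shares 345 exonic bases with H1-10-AS1 on the opposite strand, which had 72 to 87 counts in SKP2-2, 114 to 128 counts in SKP2-1 and 190 to 206 counts in NC, and strand use in the counting is not given in the sources used here.

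The unevenness of H2AX and H1-10 moved with the GC content of their transcripts. These are the most GC-rich of the 7 tested genes, at 66.4% and 68.6%, above 98.1% and 99.3% of all tested genes. SKP2-2 replicate 3 exceeded replicate 1 by 0.85 (H2AX) and 0.74 (H1-10) on the log2 scale, and NC replicate 1 exceeded replicate 3 by 0.95 and 0.78. Genes of 66 to 69% GC differed by medians of 0.81 and 1.06 between those same libraries. In SKP2-1, replicates 3 and 1 differed by -0.20 (H2AX) and -0.05 (H1-10), with a median of -0.03 for such genes. The other 5 histone variant genes, at 40.5 to 54.9% GC, differed by -0.24 to 0.18 in the same pairs of libraries. With offsets for GC fitted in each library, an alternative chosen after seeing the data, all 7 genes were called lower in SKP2-2, where 56.3% of all tested genes were called and 28.3% called lower. H2AX was -0.74 there (SE 0.05, adjusted p = 6.59e-08) and H1-10 -2.01 (adjusted p = 3.28e-10). The offsets follow each library's deviation from the mean of all 9 libraries, so they also take up differences between groups along GC. They enter the fit as known values, and the SE and adjusted p leave out their own error. Over all 18 alternatives H2AX in SKP2-2 lay between -0.74 and -0.15 (adjusted p = 6.59e-08 to 0.66). In SKP2-1 H2AX was then -1.34 and H1-10 -0.74, and between siRNAs they differed by 0.60 and -1.27. Without NC replicate 1 and SKP2-2 replicate 3, also chosen after seeing the data, H2AX in SKP2-2 was -0.38 (adjusted p = 0.112), H1-10 in SKP2-1 was -0.59 (adjusted p = 7.63e-05, range over the alternatives 2.63e-06 to 0.09), and 6 of the 7 genes were called in SKP2-2, beside 53.3% of all genes tested in that fit.

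**Figure D3:**
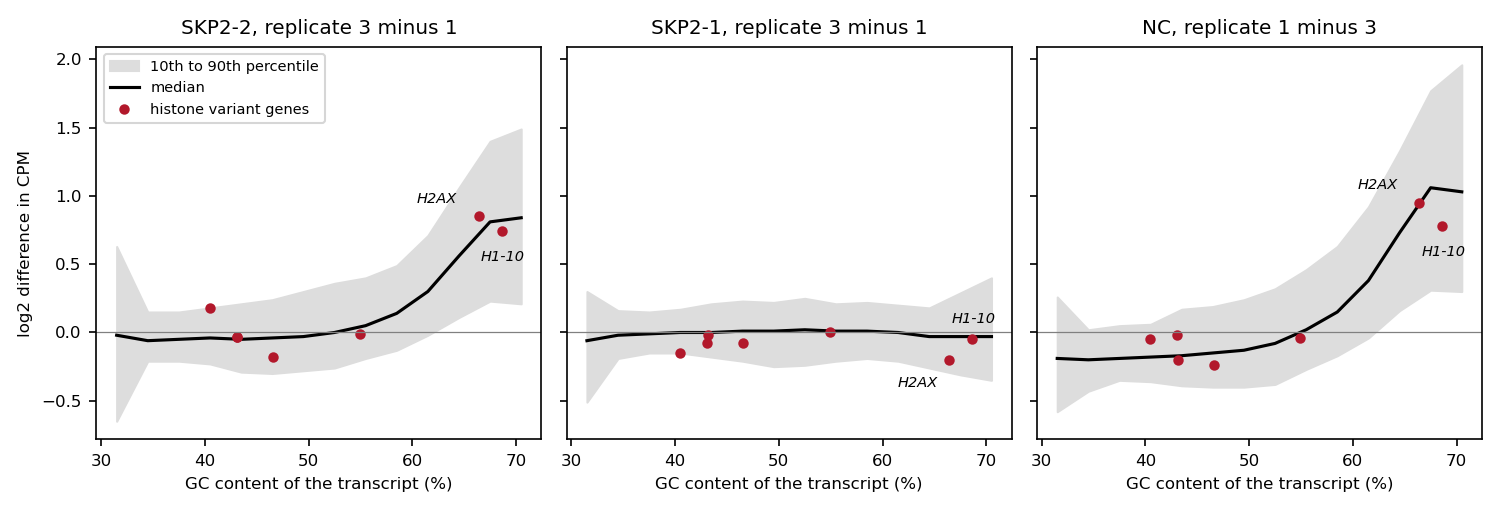
Difference in log2 CPM between the most distant replicates of SKP2-2, SKP2-1 and NC (vertical axis) against the GC content of the longest coding transcript (horizontal axis, %). Black lines are medians in bins of 3% GC, grey bands the 10th to 90th percentiles and red points the 7 tested histone variant genes: H2AX and H1-10 lie with other GC-rich genes, at 0.74 to 0.95 in SKP2-2 and NC and at -0.20 to -0.05 in SKP2-1.

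Set side by side, the direct comparison of the siRNAs split the variants by which reagent left less transcript. All 7 tested genes differed, against 50.5% of all tested genes. H2AX, H2AZ1, MACROH2A1 and H3-3B were higher in SKP2-2 than in SKP2-1, as were 25.2% of all tested genes. H2AZ2, H3-3A and H1-10 were lower, as were 25.3%. SKP2 was 1.66-fold higher in SKP2-2 than in SKP2-1 (log2 difference 0.73, SE 0.08, adjusted p = 6.46e-06). The part of that difference in the values of the histone variant genes was not tested.

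**Figure D4:**
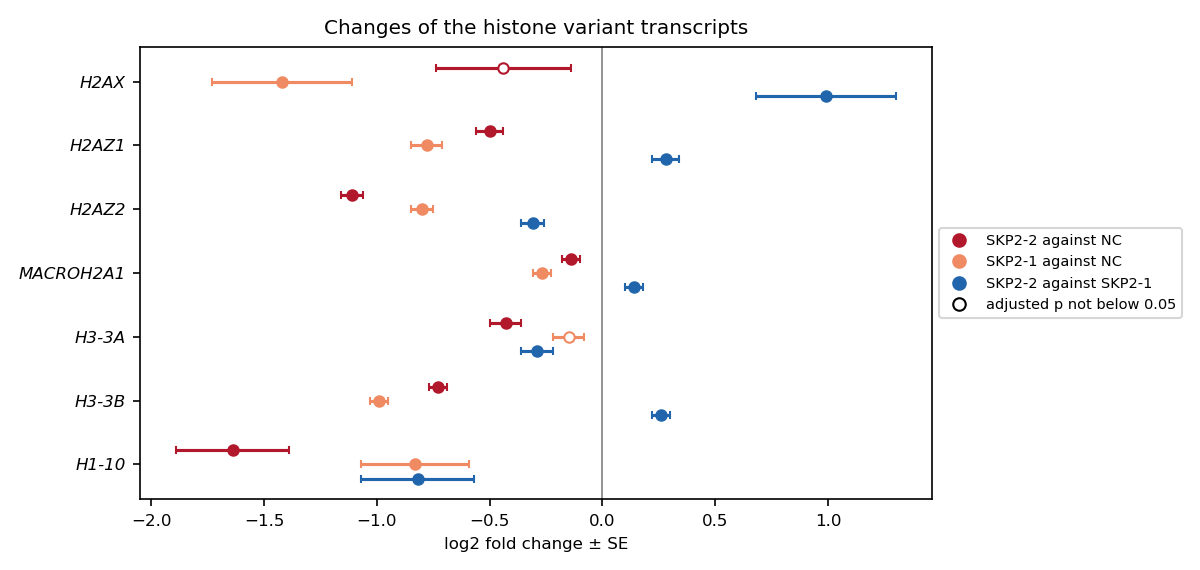
Log2 fold change (horizontal axis) with its SE for the 7 tested histone variant genes in SKP2-2 against NC, SKP2-1 against NC and SKP2-2 against SKP2-1. Filled points passed an adjusted p of 0.05: all values against NC are below 0, with H2AX in SKP2-2 (-0.44) and H3-3A in SKP2-1 (-0.15) not called.

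Levels per kilobase of the longest coding transcript (RPKM) ranked the genes from H2AZ1 down to MACROH2A2 in every group. In SKP2-2 the order was H2AZ1 (356 ± 22.9), H3-3B (89.6 ± 1.06), MACROH2A1 (85.5 ± 1.29), H2AZ2 (25.7 ± 0.438), H2AX (17.5 ± 5.20), H3-3A (7.81 ± 0.646) and H1-10 (6.39 ± 1.67 RPKM, SD, n = 3). H3-3A and H1-10 overlapped there, at 7.34 to 8.55 and 4.91 to 8.20 RPKM. In SKP2-1 the order was H2AZ1 (294 ± 9.22), MACROH2A1 (77.8 ± 0.375), H3-3B (74.9 ± 2.31), H2AZ2 (32.0 ± 0.588), H1-10 (11.3 ± 0.261), H3-3A (9.54 ± 0.523) and H2AX (8.85 ± 0.610 RPKM). H3-3A and H2AX overlapped in SKP2-1. In NC the order was H2AZ1 (504 ± 43.1), H3-3B (149 ± 4.18), MACROH2A1 (94.0 ± 1.34), H2AZ2 (55.6 ± 3.82), H2AX (23.8 ± 8.17), H1-10 (20.1 ± 5.74) and H3-3A (10.5 ± 0.193 RPKM). H2AX and H1-10 overlapped in NC, at 17.0 to 32.9 and 15.4 to 26.4 RPKM. The rank of MACROH2A1 rests on the length used, since all its annotated exons together give 13.5 RPKM in SKP2-2, 12.2 RPKM in SKP2-1 and 14.8 RPKM in NC.

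For each histone variant gene the 3 most similar profiles over the 9 libraries, by Pearson's r of log2 CPM among 9621 genes of at least 10 CPM on average, were named. The libraries form 3 groups of 3, so these r describe mainly the order of the groups. H2AZ1 was closest to TTLL7 (r = 0.997), TTI1 (0.994) and NUP205 (0.994), and H2AZ2 to AKAP11 (0.999), PARP1 (0.998) and PPP1CC (0.998). H3-3B was closest to HASPIN, MCM7 and KIFC1 (0.998 each), and H3-3A to NBPF15 (0.977), CRLF3 (0.967) and INTS6 (0.966). MACROH2A1 was closest to RFC4 (0.998), E2F8 (0.997) and CNTRL (0.997). H2AX was closest to KRI1 (0.995), THOP1 (0.993) and RUSC1 (0.991) and H1-10 to FAM20C (0.993), KRT18 (0.989) and COL1A1 (0.979), all 6 of which have 57.0 to 64.6% GC in their transcripts. The genes named for the other histone variants have 35.8 to 57.9% GC. MCM7 (57.6%) and KIFC1 (57.9%), named for H3-3B, thus fall within the range of those 6.

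Among 11 listed factors that place H3.3 into chromatin, 5 were higher and 5 lower in SKP2-2 than in SKP2-1. That is 90.9% called, beside 50.5% of all tested genes. Against NC, 1 of the 11 was higher and 6 lower in SKP2-2 (median log2 fold change -0.22), and 2 were higher and 3 lower in SKP2-1 (-0.06). The shares called, 63.6% and 45.5%, stand beside 49.4% and 45.5% of all tested genes, so in SKP2-1 the count equals the background. DAXX, the H3.3 chaperone that works with the remodeller ATRX, averaged 42.3 ± 1.19 CPM in SKP2-2, 88.4 ± 1.76 CPM in SKP2-1 and 87.9 ± 4.60 CPM in NC (SD, n = 3). It was lower in SKP2-2 (-1.06, adjusted p = 2.21e-09) and had 0.01 in SKP2-1 (adjusted p = 0.918), with -1.06 between them (adjusted p = 1.74e-09). ATRX had -0.22 in SKP2-2 (adjusted p = 0.00124) and 0.06 in SKP2-1 (adjusted p = 0.281). With GC offsets ATRX was called in SKP2-1 (adjusted p = 0.035, range over 18 alternatives 0.035 to 0.904). UBN1, a partner of HIRA, was also lower in SKP2-2 (-0.80, adjusted p = 5.11e-09), and had -0.06 in SKP2-1 (adjusted p = 0.23), called at -0.10 without NC replicate 1 or SKP2-2 replicate 1. HIRA, which deposits H3.3 at active genes, had 0.52 in SKP2-2 (adjusted p = 0.0625) and -0.46 in SKP2-1 (adjusted p = 0.108), and differed directly between them by 0.98 (adjusted p = 0.00378). HIRA was at 6.46, 8.57 and 9.88 CPM in SKP2-2 replicates 1 to 3 and 7.65, 5.28 and 4.61 CPM in NC. In SKP2-1 it was at 4.17, 4.36 and 4.11 CPM. HIRA was called in SKP2-2 without NC replicate 1 (0.74) or SKP2-2 replicate 1 (0.62), and in SKP2-1 without NC replicate 3 (-0.61). DESeq2 and the fit with no filter on low counts called it with both siRNAs. Leaving out NC replicate 1 together with SKP2-2 replicate 3 also called it in SKP2-2. Over 18 alternatives the adjusted p of HIRA spanned 4.22e-05 to 0.18 in SKP2-2 and 0.00072 to 0.227 in SKP2-1. ASF1A, which hands H3.3 and H4 to HIRA, fell in SKP2-2 (-0.43, adjusted p = 0.000142) and rose in SKP2-1 (0.39, adjusted p = 0.000357). The histone chaperones NASP (-0.69 in SKP2-2, -0.84 in SKP2-1) and DEK (-0.48, -0.64) were lower with both.

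Among 15 genes of H2A.Z exchange, 1 was higher and 6 lower in SKP2-2 (median -0.13), and 1 was higher and 7 lower in SKP2-1 (median -0.20). The shares called, 46.7% and 53.3%, lie near those of all tested genes, 49.4% and 45.5%. ANP32E, the chaperone that removes H2A.Z, averaged 144 ± 7.47 CPM in SKP2-2, 173 ± 3.299 CPM in SKP2-1 and 289.6 ± 23.3 CPM in NC (SD, n = 3). It fell in both, by 1.01 and by 0.74 on the log2 scale (adjusted p = 1.64e-08 and 3.39e-07). EP400, a motor subunit that installs H2A.Z, was lower with both (-0.39 in SKP2-2, adjusted p = 0.0034; -0.30 in SKP2-1, adjusted p = 0.0165, and 0.061 without SKP2-1 replicate 1). SRCAP, the other such motor, was at 3.77 to 4.93 CPM on average and had 0.19 in SKP2-2 and -0.20 in SKP2-1 (adjusted p = 0.63 and 0.612). Its SKP2-2 value was 0.54 and called without NC replicate 1 (adjusted p = 0.0125, range over 18 alternatives 0.0125 to 0.993). INO80, a remodeller that evicts H2A.Z, had 0.12 in SKP2-2 (adjusted p = 0.0362), a call lost in 14 of 18 alternatives (adjusted p = 0.00353 to 0.181 over all of them) and with any library but NC replicate 3 left out, and -0.04 in SKP2-1 (adjusted p = 0.504). RUVBL2, an ATPase shared by these complexes, was lower in SKP2-1 (-0.60, adjusted p = 0.00108) and had -0.13 in SKP2-2 (adjusted p = 0.326), where the groups overlapped. With GC offsets RUVBL2 was also called lower in SKP2-2 (adjusted p = 7.25e-06, range over 18 alternatives 7.25e-06 to 0.746).

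Kinases, phosphatases and readers of H2AX numbered 13, of which none was higher and 10 lower in SKP2-2, and 1 was higher and 9 lower in SKP2-1 (median -0.35 in each, with 76.9% called in each). Beside this list and the next stand 49.4% of all tested genes called in SKP2-2 and 45.5% in SKP2-1, with 24.1% and 20.5% lower. ATM, the kinase that phosphorylates H2AX at breaks, averaged 85.2 ± 1.98 CPM in SKP2-2, 163 ± 5.33 CPM in SKP2-1 and 150 ± 12.1 CPM in NC (SD, n = 3; -0.81, adjusted p = 8.45e-08 and 0.12, adjusted p = 0.0956). Without NC replicate 3 the SKP2-1 value was 0.18 and called. MDC1, the protein that reads the phosphorylated tail, was lower with both (-0.58 and -0.95). So were BAZ1B, the WSTF kinase of its tyrosine (-0.35 and -0.63), and PPM1D, a phosphatase that removes the mark (-0.48 and -0.97). Of 8 chaperones and readers of macroH2A and H1, 5 were lower in SKP2-2 (62.5%, median -0.16) and 7 in SKP2-1 (87.5%, median -0.28), among them PARP1, whose activity macroH2A1.1 restrains (-0.76 and -0.53), and the remodeller HELLS (-0.84 and -0.99).

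Histone supply during S phase was covered by a pair of lists. Beside them and the cycle markers below stand 49.4% of all tested genes called in SKP2-2 and 45.5% in SKP2-1. Of all tested genes 24.1% were lower in SKP2-2 and 20.5% in SKP2-1, with medians of 0.03 and 0.02. Of 11 genes of replication-coupled deposition, none was higher, 7 were lower in SKP2-2 (63.6%, median -0.44) and 10 in SKP2-1 (90.9%, median -0.94). They included both large subunits of the CAF-1 chaperone, CHAF1A (-0.78 in SKP2-2, -1.05 in SKP2-1) and CHAF1B (-0.57, -1.16), ASF1B (-0.32, -1.22), the replicative helicase subunit MCM2 (-0.72, -0.94) and MMS22L (-1.65, -0.95). Of 10 genes that drive or process canonical histone mRNA, 1 was higher and 7 lower in SKP2-2 (median -0.29), and none was higher and 8 lower in SKP2-1 (median -0.31), which is 80.0% called in each. NPAT, their coactivator, had -1.10 and -0.30, and SLBP, which binds the stem-loop, had -0.58 and -0.31. LSM11, part of the processing U7 particle, rose in SKP2-2 (0.29, adjusted p = 0.00106) and fell in SKP2-1 (-1.08, adjusted p = 1.20e-08). ERI1, the exonuclease that trims the stem-loop, had -1.03 and -0.29. Markers of S phase were lower for 14 of 16 genes in SKP2-2 (median -0.54) and 16 of 16 in SKP2-1 (-1.05), and G2/M markers for 15 of 15 in each (-1.04 and -1.48). Their part in the values of the histone variant genes was not tested.

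**Figure D5:**
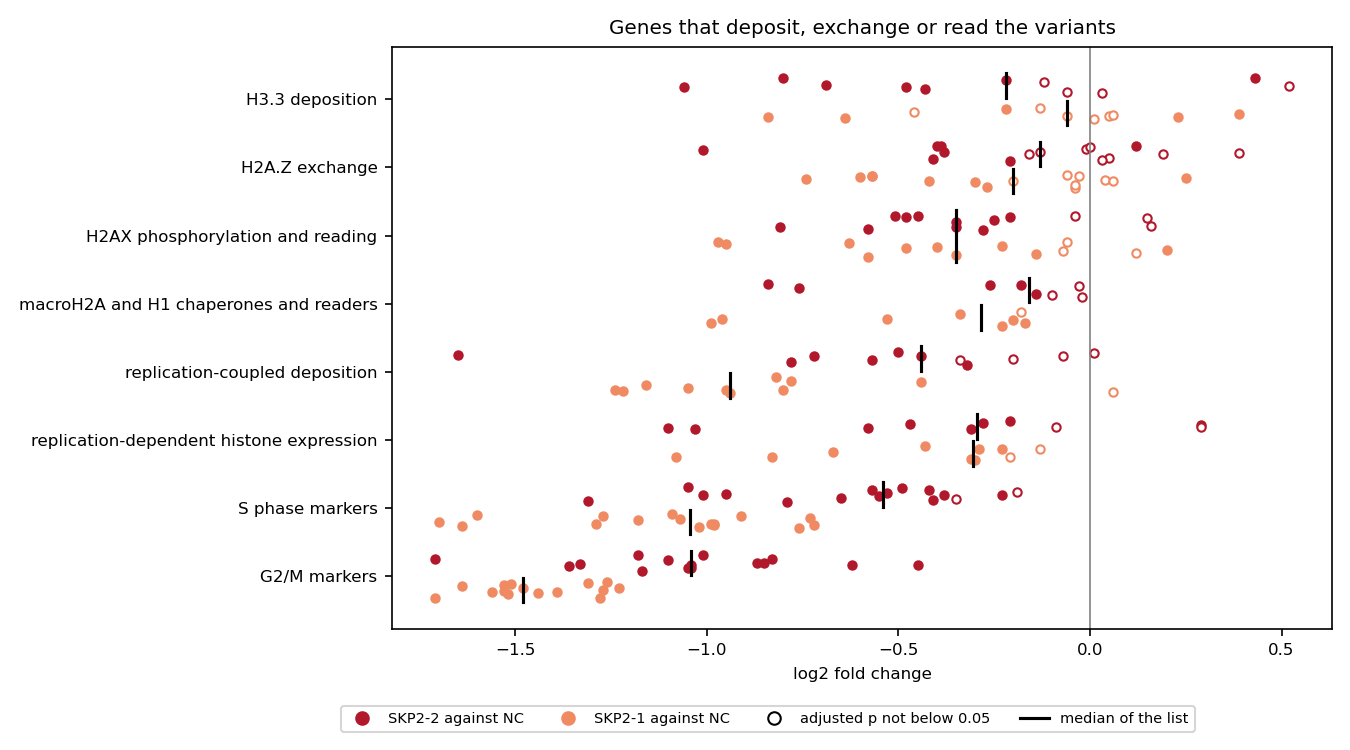
Log2 fold change (horizontal axis) of each tested gene in 8 lists, with SKP2-2 against NC drawn above SKP2-1 against NC in each row, filled where the adjusted p was below 0.05 and with a black line at the list's median. The G2/M markers are all below 0 with both siRNAs (medians -1.04 and -1.48), and H3.3 deposition genes lie on both sides of 0.

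Canonical histones and other variants give the setting of these values. Of 65 canonical histone genes, 24 passed the filter, with 5 higher and 12 lower in SKP2-2 (median -0.50) and 7 higher and 9 lower in SKP2-1 (median -0.52). That is 70.8% and 66.7% called, beside 49.4% and 45.5% of all tested genes, whose medians were 0.03 and 0.02. The values of the canonical genes are uncertain, because these genes are near-identical copies and most of their mRNAs lack a poly(A) tail. How RNA was selected is not given in the sources used here. The 4 with the highest mean level were H2BC12 (0.69 in SKP2-2, 0.84 in SKP2-1), H1-2 (-0.40, 0.57), H2AC6 (1.43, 1.56) and H2BC5 (0.98, 1.16), all called. Of 15 other variant genes listed, 3 were tested, and values are given for CENPA and H2AJ. CENPA, the centromeric H3 variant, averaged 12.3 ± 0.638 CPM in SKP2-2, 8.16 ± 0.677 CPM in SKP2-1 and 23.9 ± 1.43 CPM in NC (SD, n = 3; -0.96, adjusted p = 3.26e-07 and -1.55, adjusted p = 5.22e-09). H2AJ was not called, with 0.06 in SKP2-2 and -0.69 in SKP2-1 (adjusted p = 0.922 and 0.26).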

How the data were processed

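Total RNA came from RNeasy columns with a DNase I step, per the labels' protocols. Each library has its own deposited table of unnormalized counts by Ensembl identifier. The submitters' processing notes name HTSeq 0.6.1, DESeq2 1.16.1, Trim Galore 0.4.1, FastQC 0.11.2 and the aligner STAR, without their settings. Genome build, annotation, strand setting and read length are not given in the sources used here. Reads outside genes (5.34 to 5.92% per library) and reads in several genes (3.87 to 3.97%) were left out, and the line for multiply mapped reads is 0 in every file. Symbols came from the supplied name table for 57754 of 58395 identifiers and from GENCODE 29 for 521. Coordinates, transcript lengths and GC content came from GENCODE 29 on GRCh38, with a GC value for 99.9% of tested genes, and promoters from RefSeq.

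Tests used edgeR 4.0.16 in R 4.3.3 on the counts: filterByExpr (minimum count 10, minimum total 15), TMM scaling, and a robust quasi-likelihood fit to all 9 libraries whose design held the 3 groups alone, checked on simulated counts. Two-sided p-values were adjusted by Benjamini-Hochberg across 16575 genes, and calls need an adjusted p below 0.05. SEs follow from the fold change and its F statistic. The biological coefficient of variation was 0.0891. Totals of 35476410 to 49855113 gene counts per library set the counting precision. Exact permutation tests of log2 count ratios used SciPy 1.17.1. The labels do not say that replicates are separate cultures, so p-values measure only how far these libraries vary, and that variation may be technical. No pair of replicates agreed within counting noise (chi-square per gene of 2.48 to 51.1).

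The members and the gene lists were chosen with earlier results of these data known. Genes were named by rule: the 8 members, SKP2 and SLC39A7, a set of named chaperones, kinases and other variants, list genes called with a change of at least 1.5-fold in either comparison with NC, the 4 most abundant canonical histone genes, and the 3 profiles most like each member. H3C2 and H3C3 matched no identifier. Alternatives were RLE scaling, library size only, other filters, DESeq2 1.42.0, pairs of groups fitted alone, a replicate block, each library left out in turn and, added after seeing the data, GC offsets and a fit without NC replicate 1 and SKP2-2 replicate 3.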

Additional observations from a re-analysis of the deposited data

Results flagged for a closer look

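The effect of the siRNAs on each tested histone variant gene was picked out because the direct comparison of SKP2-2 with SKP2-1 passed the adjusted threshold, as it did for 50.5% of all tested genes. On the log2 scale SKP2-2 minus SKP2-1 was 0.99 for H2AX, 0.28 for H2AZ1, 0.14 for MACROH2A1 and 0.26 for H3-3B. It was -0.31 for H2AZ2, -0.29 for H3-3A and -0.82 for H1-10. The values of H2AX and H1-10 lost their call in 8 and 7 of 18 alternatives, with adjusted p up to 0.107 and 0.0948.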

How the results depend on the processing

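Over 18 alternatives, all 21 values of the 7 tested members kept their direction, and 352 of the 378 recomputed values kept their side of the threshold. The count of members called ranged from 6 to 7 in SKP2-2 against NC and from 5 to 7 in the other comparisons. For all genes, the counts of calls stayed within 1.5 times. H3-3A in SKP2-1 was called with a filter of at least 1 CPM in at least 3 libraries (-0.18). Of the other genes, near-zero values changed sign. In SKP2-1, DAXX and SLC39A7 had -0.01 with DESeq2 and RLE scaling, -0.03 with GC offsets, with the 1 CPM filter and without SKP2-2 replicate 1, and -0.06 with only the pair of groups, where ATRX had -0.00. Without NC replicate 1, alone or with SKP2-2 replicate 3, DAXX had -0.05, SLC39A7 -0.01 and SRCAP 0.15. DAXX had -0.01 without SKP2-1 replicate 1, and SLC39A7 -0.01 without NC replicate 3. In SKP2-2, H2AJ had -0.14 with GC offsets and -0.29 to -0.12 without NC replicate 2 (-0.12), NC replicate 3 (-0.19) or SKP2-2 replicate 3 (-0.29), and SRCAP -0.04 without NC replicate 3. With 1 library left out, H2AJ in SKP2-2 reached 0.59, SRCAP spanned -0.04 to 0.54 in SKP2-2 and -0.43 to 0.15 in SKP2-1, and DAXX -0.05 to 0.03 and SLC39A7 -0.03 to 0.02 in SKP2-1. The cause was not tested.

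The log2 ratio of H2AZ1 over H2AZ2 in SKP2-1 against NC lay between -0.01 and 0.05 with a library left out, around 0.02 with all of them. The ratio of MACROH2A1 over MACROH2A2 could not be computed at 1 count. The labels do not say whether replicate numbers pair the samples. Same-numbered libraries of different groups deviated with correlations of -0.498 to 0.0546, and not every library correlated best with its own number. Differences along GC within SKP2-2 and NC enter these correlations (0.502 for NC replicate 1 with SKP2-2 replicate 3), so they cannot decide the pairing. With a replicate block 7501 genes were called in SKP2-2 against NC, 6818 in SKP2-1 against NC and 7500 between the siRNAs, against 8181, 7548 and 8365 without it. Members called under the block numbered 6, 5 and 5: H1-10 in SKP2-1 (adjusted p = 0.0773) and H1-10 and H2AX between the siRNAs (0.0769 and 0.0836) were lost. MACROH2A2, with 1 count over all libraries, was too low for any comparison.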
